A study of Canis lupus familiaris with 22 samples.

Results

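Members of the Hedgehog and BMP pathways, through which the bladder epithelium and the stroma beneath it signal to each other, were examined in canine invasive urothelial carcinoma (iUC) and in normal canine bladder. The 10 members were named by their symbols: the Hedgehog ligands SHH and IHH, the receptor PTCH1, its partner SMO, the transcription factors GLI1, GLI2 and GLI3, the inhibitor HHIP and the ligands BMP4 and BMP5. A member was measured where the platform annotation gave its symbol as the only gene of a probe set, a group of short probes that together report a transcript. Of the 10 members, 8 were measured, by 10 of the 42924 probe sets analysed, and they make up 8 of the 15115 genes. GLI3 and HHIP had 2 probe sets each and the other measured members 1 each. SHH and GLI2 had no such probe set and were not analysed here.

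The tumours were 18 biopsies of naturally occurring iUC, taken from pet dogs by cystoscopy before any therapy. They were set against 4 samples of normal bladder from healthy dogs of similar age without tumours. Each sample was a biological replicate on its own Affymetrix canine array, prepared from 5 µg of total RNA. Which layers of the bladder wall a sample held, and how much stroma a biopsy contained, is not stated in the sources used here.

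Hedgehog ligands are secreted proteins that bind the receptor PTCH1, and binding frees SMO to act on the GLI transcription factors. GLI1 and PTCH1 are themselves switched on by the pathway, as is HHIP, a surface protein that binds the ligands and dampens the signal. In the mouse bladder, Shh made by the basal urothelium acts on stromal cells, and BMP4 and BMP5 made by those cells act back on the urothelium and favour its differentiation. In bulk tissue such as this, fewer cells of a type and less RNA per cell cannot be told apart.

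The deposited values are log2 values that were centred on each probe set's median over all 22 arrays, so a value of 0 is the middle sample and 1 unit is a doubling. They hold no expression level, and the 8 members cannot be ranked by abundance. A gene was given the mean of its probe sets and is termed called when the adjusted p from limma was 0.05 or below and the fold change was 2 or more. Of the 8 measured members, 1 was called: BMP5, which was lower in iUC. Among all genes 8.64% were called lower in iUC, 3.68% were called higher and 12.3% were called in either direction. By the adjusted p alone, at any fold change, 4 of the 8 members passed, IHH and SMO with higher values in iUC and HHIP and BMP5 with lower values. By that looser rule 35.7% of all genes passed, 18.2% with higher and 17.5% with lower values in iUC, and a count of 4 in 8 stands close to that background.

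Some properties of the arrays bear on these values. All 18 iUC samples and normal bladder replicate 1 share one ending of the sample label, whereas normal bladder replicates 2 to 4 have another, so the ending and the group cannot be told apart except through that one normal sample. The iUC arrays also fall into sets by the mean of 17 control probe sets named Tag, which name no dog gene: 7 arrays lay at 0.277 to 0.46 (high Tag) and 11 at -0.128 to 0.131 (low Tag), and the normal arrays lay at -0.215 to -0.0768. The mean of 7 control probe sets for GAPDH and actin was -1.28 to -0.483 on the high Tag arrays and -0.785 to 0.376 on the low Tag arrays. Among the normal samples, replicates 3 and 4 were the most alike (r = 0.934 over the probe sets, against 0.761 for the pair that came next). Of 19 smooth muscle markers measured, 16 were called lower in iUC, and the mean of these markers was -0.52 to 1.1 in iUC and 2.48 to 4.15 in normal bladder. Of 20 urothelium markers, 12 were called higher and 1, KRT13, was called lower in iUC. Of the endothelium markers 3 of 12 were called lower, of the immune cell markers 3 of 19 and of the nerve and Schwann markers 2 of 10, and none of these was called higher.

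Of the Hedgehog ligands among the members, SHH and IHH, only IHH was measured. Its centred log2 value in the 18 iUC samples ran from -0.56 to 0.68 with a median of 0.15, against -1.22, -0.77, -0.68 and -0.87 in normal bladder replicates 1 to 4. Every iUC sample lay above every normal sample, a pattern that 3.22% of all genes showed in this direction and 7.69% in either direction. The difference, iUC minus normal bladder, was 0.97 on the log2 scale (SE 0.20, limma adjusted p = 0.000899), with a 95% interval of 0.56 to 1.39. This is a fold change of 1.96, just under the 2-fold threshold, so IHH was not called. It passed the threshold at 1.01 without iUC replicate 8 or iUC replicate 12, at 1.01 without normal bladder replicate 2 and at 1.04 without normal bladder replicate 3. After quantile normalization the difference was 0.75 and its adjusted p was 0.1.

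Within the label ending that the iUC samples share with normal bladder replicate 1, the IHH difference was 1.31 (SE 0.37, limma adjusted p = 0.06), and the single normal sample at -1.22 was the lowest of all 22 arrays. IHH is made by epithelial cells in several organs, and the urothelium markers moved with the group. Their mean over 20 genes was -1 to 0.639 in iUC, with a median of 0.168, and -2.91 to -0.0393 in normal bladder. In normal bladder replicates 1 and 2 the urothelium mean was -0.373 and -0.0393, inside the iUC range. In replicates 3 and 4 it was -1.64 and -2.91, below that range. IHH was below all iUC samples in every normal sample. The part of epithelial content in the IHH difference was not tested.

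**Figure D1:**
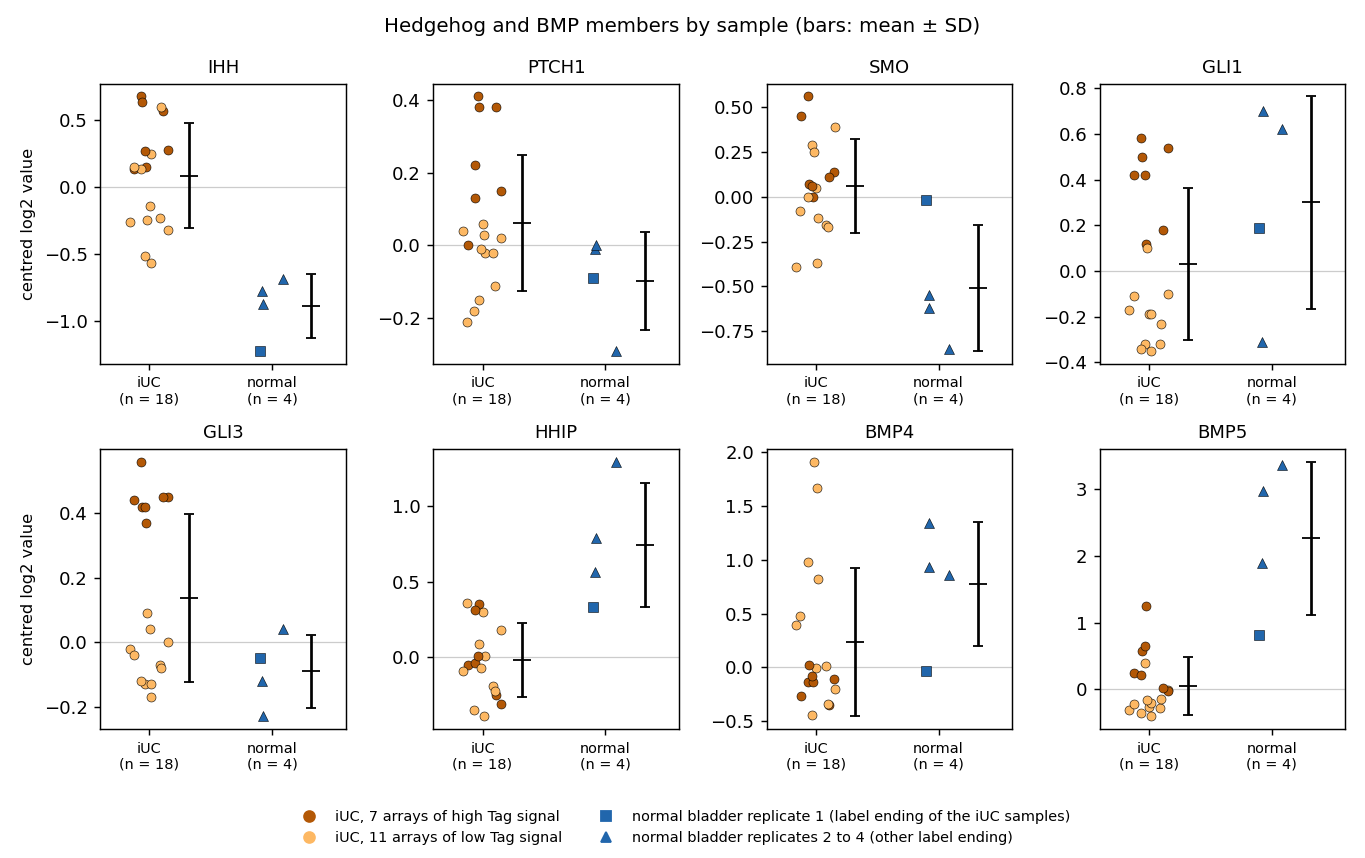
Centred log2 value (vertical axes, each on its own scale) of the 8 measured members in 18 iUC samples and 4 normal bladder samples. Points are samples, bars are the mean and SD of a group, colours mark high Tag and low Tag iUC arrays, and the square marks normal bladder replicate 1. All iUC points of IHH lie above the normal points, all but 1 iUC point of BMP5 lie below them, and the high Tag and low Tag points of GLI1 and GLI3 do not mix.

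PTCH1, the receptor of the ligands and a response gene of the pathway, had the smallest spread of the 8 members. Its values ran from -0.21 to 0.41 in iUC with a median of 0.02, against -0.09, -0.01, -0.29 and 0.00 in normal bladder. The groups overlapped, with 10 of 18 iUC samples above the highest normal sample and none below the lowest. The difference was 0.16 (SE 0.10, limma adjusted p = 0.225) with an interval of -0.06 to 0.38, inside the 2-fold threshold in both directions on this scale. Because the centred values hold no level, it cannot be told whether this probe set detected the transcript. On high Tag arrays PTCH1 lay at 0.00 to 0.41 and on low Tag arrays at -0.21 to 0.06.

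SMO is the membrane protein that carries the signal inward once PTCH1 is bound. It ran from -0.39 to 0.56 in iUC with a median of 0.06, against -0.02, -0.55, -0.85 and -0.62 in normal bladder replicates 1 to 4. Of the 18 iUC samples, 12 lay above the highest normal sample and the other 6 between that sample and the next. The difference was 0.57 (SE 0.15, limma adjusted p = 0.00674), a fold change of 1.49. Normal bladder replicate 1 alone stood within the iUC range, so once the label ending was a block the difference was 0.08 (SE 0.26, adjusted p = 0.924), and after quantile normalization it was 0.42 (adjusted p = 0.159). Without normal bladder replicate 3 the adjusted p was 0.0562.

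GLI1, the GLI factor whose transcription reports an active pathway, ran from -0.35 to 0.58 in iUC with a median of -0.11, against 0.19, -0.31, 0.62 and 0.70 in normal bladder. The ranges overlapped, with no iUC sample above the highest normal sample and 4 of 18 below the lowest. The difference was -0.27 (SE 0.19, limma adjusted p = 0.257) with an interval of -0.67 to 0.13. The sets of iUC arrays parted in GLI1, as they did in 28.7% of all genes. GLI1 lay at 0.12 to 0.58 on the 7 high Tag arrays and at -0.35 to 0.10 on the 11 low Tag arrays, with no overlap. Without the high Tag arrays the difference from normal bladder was -0.51 (SE 0.14, adjusted p = 0.0131), and without the low Tag arrays it was 0.09 (SE 0.18, adjusted p = 0.667). Single normal samples moved it too, to -0.48 (adjusted p = 0.0808) without normal bladder replicate 2 and -0.14 (adjusted p = 0.637) without replicate 4. With array weights it was -0.66 (SE 0.12, adjusted p = 0.000101), under the fold threshold.

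GLI3, which in its cleaved form represses Hedgehog target genes, also differed between the sets of iUC arrays. It ran from -0.17 to 0.56 in iUC with a median of 0.02, against -0.05, -0.12, 0.04 and -0.23 in normal bladder. Of the iUC samples 9 lay above the highest normal sample and the other 9 within the normal range. The difference was 0.23 (SE 0.14, limma adjusted p = 0.181). On high Tag arrays GLI3 lay at 0.37 to 0.56 and on low Tag arrays at -0.17 to 0.09, again with no overlap.

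Of the 2 GLI3 probe sets, 1 parted without overlap. The probe set whose name ends in _s_at, with probes that can match more than 1 transcript, lay at 0.60 to 0.89 on high Tag arrays and -0.25 to 0.01 on low Tag arrays. The other GLI3 probe set shifted the same way but overlapped between them, at 0.04 to 0.31 (median 0.18) and -0.09 to 0.19 (median -0.01). Among all genes 28.7% did not overlap between high Tag and low Tag iUC arrays, and in 15.9% the high Tag arrays were all above, as for GLI1 and GLI3, so this parting is shared with many genes. The comparison of iUC with normal bladder was made again within these sets. Without the high Tag arrays 5.96% of genes were called lower and 5.23% higher in iUC, and without the low Tag arrays 17.4% were called lower and 7.16% higher.

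HHIP, the membrane-bound inhibitor, had lower values in iUC and rested on 2 probe sets that differed. As a gene it ran from -0.39 to 0.36 in iUC with a median of -0.05, against 0.33, 0.56, 1.29 and 0.79 in normal bladder. Of 18 iUC samples 16 lay below the lowest normal sample, and iUC replicates 6 and 17 at 0.35 and 0.36 lay just above it. The difference was -0.76 (SE 0.15, limma adjusted p = 0.000651), a fold change of 1.69 in size, so HHIP as a gene was not called. After quantile normalization it was -0.52 (adjusted p = 0.0664) and under the block for the label ending -0.35 (adjusted p = 0.817).

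Taken singly, the HHIP probe set whose name ends in _s_at was called lower in iUC. It ran from -0.51 to 0.61 in iUC with a median of -0.13, against 0.66, 1.15, 1.59 and 1.23 in normal bladder, and every iUC sample lay below every normal sample. The difference was -1.20 (SE 0.20, limma adjusted p = 9.12e-05 over all probe sets), a fold change of 2.31 in size. Of all probe sets 10.7% were called lower and 14.6% in either direction.

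The other HHIP probe set was not called. It ran from -0.28 to 0.44 in iUC with a median of 0.00, against -0.01, -0.02, 0.99 and 0.34 in normal bladder. Only normal bladder replicate 3 stood above the iUC range, and the difference was -0.32 (SE 0.14, limma adjusted p = 0.0831), or -0.10 without that sample and 0.02 under the block for the label ending. With 1 or more called probe sets as the rule, HHIP and BMP5 were called, that is 2 of 8 members, beside 21.4% of all genes. The call of the first HHIP probe set held without each normal sample in turn, at -1.37 to -1.06, but was lost after quantile normalization (-0.81, adjusted p = 0.0337) and under the block for the label ending (-0.71, adjusted p = 0.593).

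**Figure D2:**
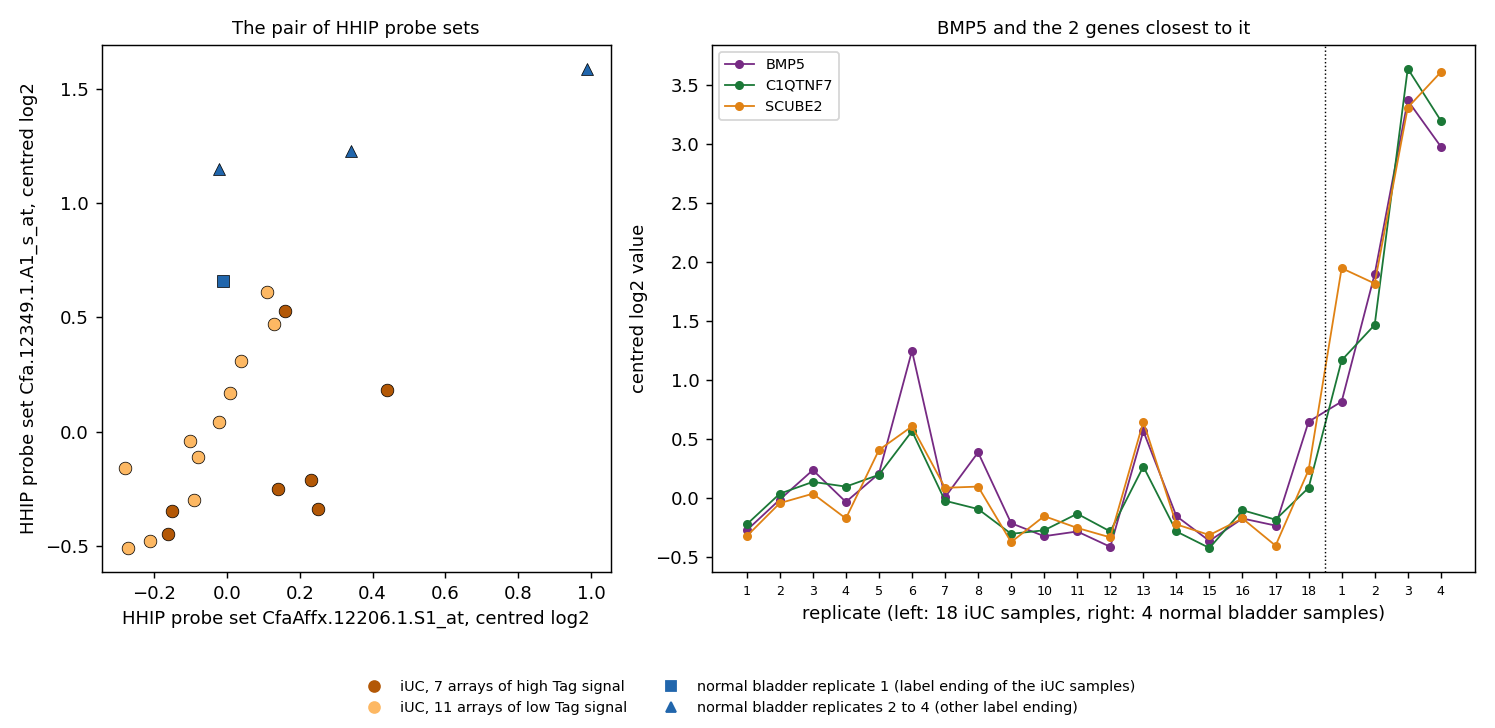
Left, the called HHIP probe set (vertical axis, centred log2) against the other HHIP probe set (horizontal axis, centred log2), 1 point per sample. Right, BMP5 with C1QTNF7 and SCUBE2 (vertical axis, centred log2) in each sample, iUC left of the dotted line and normal bladder right of it, with lines that only join the points of a gene. On the called HHIP probe set the normal points start at 0.66, above all iUC points, while on the other they mix.

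BMP4 and BMP5 are secreted ligands of the BMP family, and in the mouse bladder both are stromal. BMP4 was the most variable member among the tumours. It ran from -0.44 to 1.91 in iUC with a median of -0.05, against -0.03, 1.34, 0.86 and 0.93 in normal bladder replicates 1 to 4. The groups overlapped: 9 of 18 iUC samples lay below the lowest normal sample and 2, iUC replicates 16 and 12 at 1.91 and 1.67, lay above the highest. The difference was -0.54 (SE 0.36, limma adjusted p = 0.225), and its interval of -1.28 to 0.20 includes a fall of more than 2-fold.

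The SD of BMP4 over the 18 iUC samples was 0.69, larger than that of 85.7% of genes, beside a median of 0.34 over all genes and 0.19 for PTCH1. The high values were all on low Tag arrays, at -0.44 to 1.91 with a median of 0.39, whereas the 7 high Tag arrays lay between -0.35 and 0.02. Next after iUC replicates 16 and 12 came iUC replicate 15 at 0.98 and iUC replicate 9 at 0.82. Against normal bladder the difference was -0.93 (SE 0.20, adjusted p = 0.00195) with high Tag arrays alone and -0.30 (SE 0.41, adjusted p = 0.59) with low Tag arrays alone. Under the block for the label ending its sign turned, to 0.26 (SE 0.65, adjusted p = 0.903).

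BMP5 fell in iUC. Its only probe set has a name that ends in _s_at, so its probes can match more than 1 transcript, as with the called HHIP probe set. Its value ran from -0.41 to 1.25 in the 18 iUC samples with a median of -0.09, against 0.82, 1.90, 3.37 and 2.98 in normal bladder replicates 1 to 4. Of the 18 iUC samples 17 lay below the lowest normal sample, and iUC replicate 6 at 1.25 lay above normal bladder replicate 1 and below the other normal samples. The mean was 0.05 ± 0.44 in iUC (SD, n = 18) and 2.27 ± 1.15 in normal bladder (SD, n = 4). The difference was -2.22 (SE 0.32, limma adjusted p = 2.21e-05) with an interval of -2.88 to -1.56, a fold change of 4.66 in size. All iUC samples below all normal samples, which iUC replicate 6 kept BMP5 from showing, was seen in 4.47% of all genes.

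The normal samples differed more among themselves in BMP5 than the tumours did. Without each normal sample in turn BMP5 was called each time, at -2.70 to -1.85, and without iUC replicate 6 the difference was -2.29. Quantile normalization left it called at -1.46 (SE 0.32, limma adjusted p = 0.0036), in a fit in which 2.85% of genes were called lower and 1.95% higher. Under the block for the label ending, which sets normal bladder replicate 1 alone against the tumours, it was -0.77 (SE 0.48, adjusted p = 0.698) and was not called. In that fit 2.57% of genes were called lower and 0.0992% higher.

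**Figure D3:**
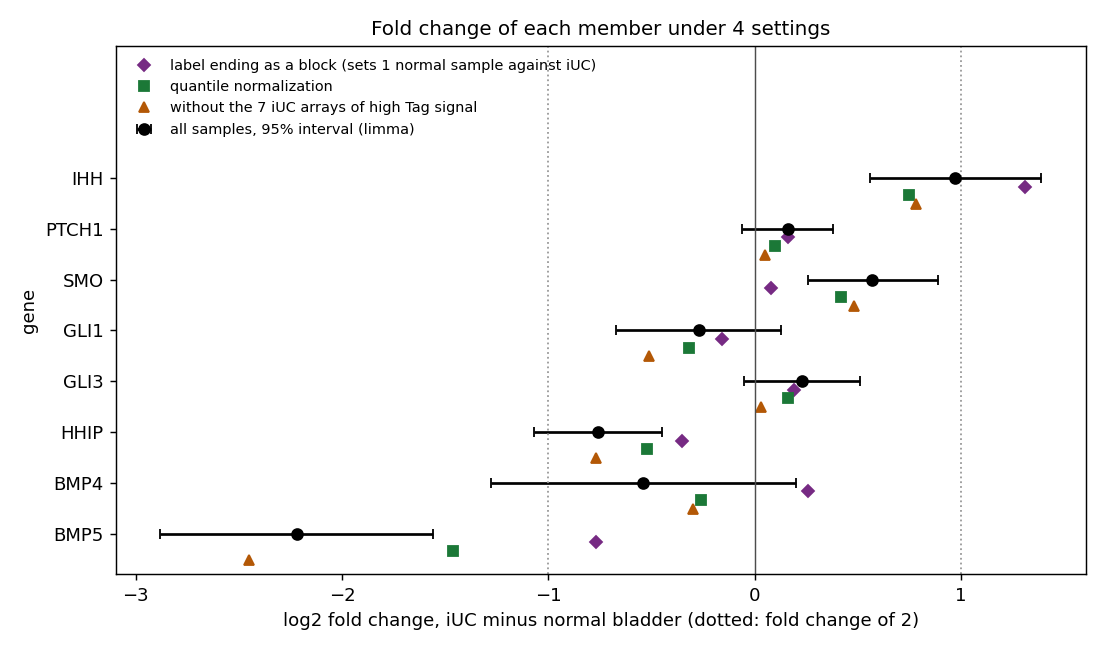
Log2 fold change, iUC minus normal bladder (horizontal axis), of the 8 measured members (vertical axis) over all samples with the 95% interval from limma (black), after quantile normalization (green), without the 7 high Tag iUC arrays (orange) and with a block for the label ending (purple). The dotted lines mark a fold change of 2. With the block BMP5 lies at -0.77, SMO at 0.08 and IHH at 1.31.

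BMP5 lay beside genes that fell as it did. The genes nearest to it over all 22 arrays, by the root mean square difference of centred log2 values, were C1QTNF7 at 0.27 and SCUBE2 at 0.34. SCUBE2 is a secreted protein that helps release lipid-modified Hedgehog ligands from the cells that make them. SCUBE2 ran from -0.40 to 0.65 in iUC with a median of -0.16, against 1.95, 1.82, 3.31 and 3.61 in normal bladder. Its difference was -2.70 (SE 0.25, limma adjusted p = 5.48e-08), and that of C1QTNF7 was -2.42 (SE 0.28, adjusted p = 1.4e-06). Neither overlapped between the groups. Both were picked here for closeness to BMP5 on these same arrays, so their fall follows largely from that choice. It is no separate evidence for the fall of BMP5.

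Smooth muscle and fibroblast markers moved with BMP5 between the groups. Of 19 smooth muscle markers 16 were called lower and of 21 fibroblast and matrix markers 15 were called lower and 1, PDGFRA, higher in iUC. The mean of the fibroblast and matrix markers was -0.919 to 0.929 in iUC and 0.798 to 2.15 in normal bladder, and iUC replicate 12 at 0.929 was the 1 tumour inside the normal range. MYL9, a myosin light chain of smooth muscle, differed by -6.11 (limma adjusted p = 1.25e-07), and MFAP5, a microfibril protein, by -4.48 (adjusted p = 5.82e-10). Normal bladder replicates 3 and 4 had the highest smooth muscle means, 3.77 and 4.15, and the highest BMP5 values, 3.37 and 2.98. Normal bladder replicate 1 had a smooth muscle mean of 3.5 and the lowest normal BMP5 value, 0.82. Normal bladder replicate 2 had the lowest normal smooth muscle mean, 2.48, and a BMP5 value of 1.90. The part of stromal content in the BMP5 and HHIP differences was not tested.

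**Figure D4:**
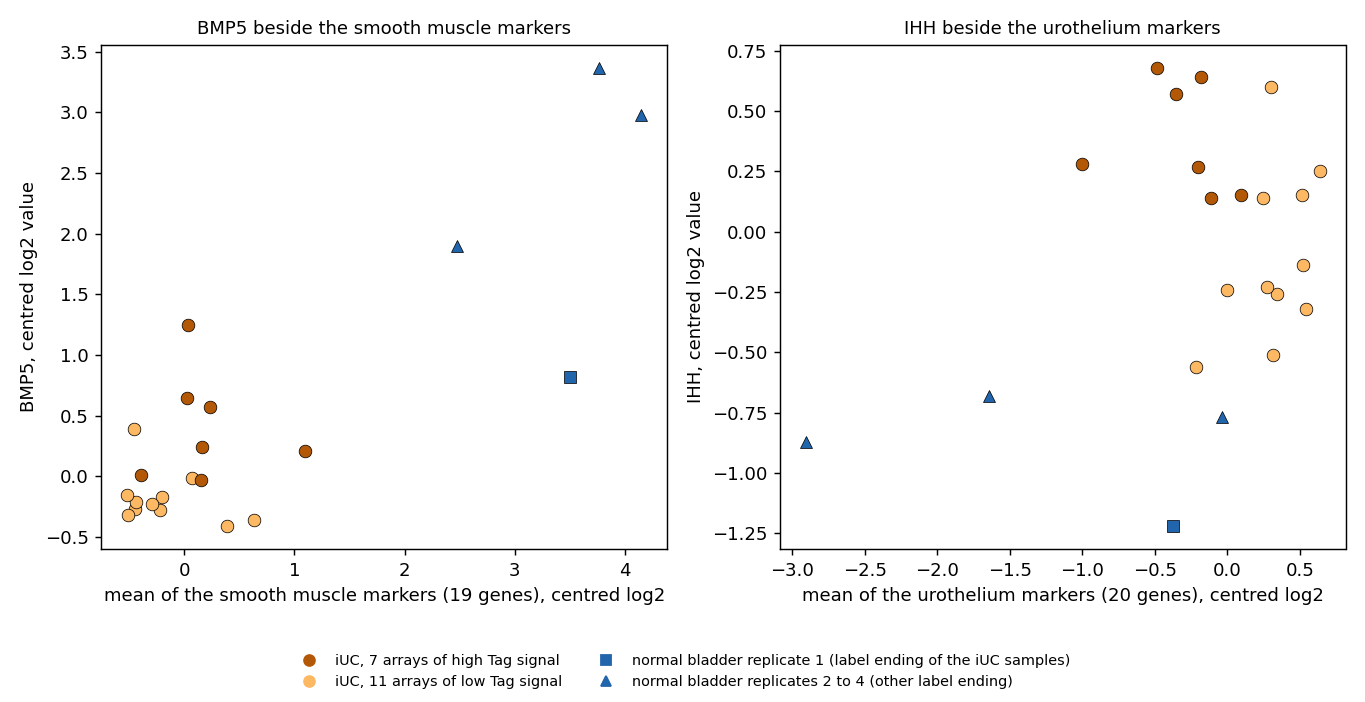
Left, BMP5 against the mean of 19 smooth muscle markers, and right, IHH against the mean of 20 urothelium markers, all in centred log2 values, with 1 point for each of 18 iUC samples and 4 normal bladder samples. The smooth muscle means of the normal samples lie at 2.48 to 4.15, apart from those of iUC at -0.52 to 1.1, and the urothelium means overlap between the groups.

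Among the tumours alone the members were set against each other and against the marker means, within high Tag and low Tag arrays apart. Over 29 relations in each set, 58 in all, none had an adjusted permutation p of 0.05 or below, and 6 had an unadjusted p of 0.05 or below for Pearson's r. The lowest adjusted p was 0.366 for r and 0.33 for rho. On the 7 high Tag arrays BMP5 went with the fibroblast and matrix mean at Pearson r = 0.829 (exact permutation p = 0.0192, adjusted p = 0.366) and Spearman rho = 0.75 (exact permutation p = 0.0663). Without the 2 arrays farthest from the median of the marker mean, r was 0.753. On the 11 low Tag arrays the same relation had r = 0.266 (permutation p = 0.43) and rho = 0.209 (permutation p = 0.538). With the smooth muscle mean, BMP5 had r = -0.0687 (exact permutation p = 0.892) on high Tag arrays. On low Tag arrays BMP5 and the smooth muscle mean had r = -0.368 (permutation p = 0.254).

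HHIP and the urothelium mean gave r = 0.707 (permutation p = 0.0135, adjusted p = 0.366) and rho = 0.745 (permutation p = 0.0115) on the 11 low Tag arrays, with r = 0.681 without the 2 farthest. On the 7 high Tag arrays it was r = 0.758 (exact permutation p = 0.0377) and rho = 0.714 (exact permutation p = 0.0881), with r = 0.406 without the 2 farthest. HHIP and the fibroblast and matrix mean gave r = 0.809 (exact permutation p = 0.0304, adjusted p = 0.366) and rho = 0.75 (exact permutation p = 0.0663) on high Tag arrays, with r = 0.651 without the 2 farthest. On low Tag arrays that relation had r = -0.019 (permutation p = 0.955) and rho = 0.209 (permutation p = 0.539).

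IHH and the fibroblast and matrix mean gave r = -0.692 (permutation p = 0.0173, adjusted p = 0.366) and rho = -0.664 (permutation p = 0.03) on low Tag arrays, with r = -0.573 without the 2 farthest. The high Tag arrays gave r = -0.378 (exact permutation p = 0.392) and rho = -0.321 (exact permutation p = 0.498). With the urothelium mean, IHH had r = -0.216 (exact permutation p = 0.695) on high Tag arrays. On low Tag arrays IHH and the urothelium mean had r = 0.416 (permutation p = 0.203). BMP4 and the urothelium mean gave r = -0.624 (permutation p = 0.0379, adjusted p = 0.366) and rho = -0.445 (permutation p = 0.174) on low Tag arrays, with r = -0.658 without the 2 farthest. The high Tag arrays gave r = -0.0518 (exact permutation p = 0.913) and rho = -0.143 (exact permutation p = 0.783). IHH and GLI1, a ligand and a response gene of the same pathway, gave r = 0.337 (exact permutation p = 0.431) and rho = 0.643 (exact permutation p = 0.139) on high Tag arrays. On low Tag arrays they gave r = 0.0828 (permutation p = 0.803) and rho = 0.0818 (permutation p = 0.82). BMP4 and BMP5 gave r = 0.401 (exact permutation p = 0.37) and rho = 0.25 (exact permutation p = 0.595) on high Tag arrays, and r = -0.535 (permutation p = 0.0817) and rho = -0.591 (permutation p = 0.0631) on low Tag arrays.

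The other genes of both pathways were counted by list. Of 140 other pathway genes measured, 5 were called higher and 18 lower in iUC and 117 were not called. Their median difference was 0.07 on the log2 scale, beside 0.08 over all genes. The Hedgehog lists held 72 of these genes, with 3 higher and 8 lower, and the BMP lists 68, with 2 higher and 10 lower. As shares, 3.57% of the 140 genes were called higher and 12.9% lower, beside the background of 3.68% higher and 8.64% lower over all genes. In the BMP lists 14.7% were called lower and in the Hedgehog lists 11.1%, and neither share was tested against the background. Many of these calls depended on single normal samples or on the normalization, and where leaving out 1 normal sample ended the call of 1 of the 19 genes named by rule this is given beside the gene.

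Of 13 genes for Hedgehog ligand release and co-reception, 2 were called lower and none higher in iUC. They were SCUBE2 and GPC3, a glypican of the cell surface that in mouse binds Hedgehog ligands in competition with the receptor. GPC3 ran from -0.36 to 1.37 in iUC with a median of -0.04, against 2.28, 2.76, 3.57 and 2.74 in normal bladder, a difference of -2.81 (SE 0.21, limma adjusted p = 2.85e-09) without overlap. The co-receptors BOC, CDON and GAS1 were not called, at 0.08, 0.07 and 0.50 (limma adjusted p = 0.718, 0.655 and 0.129). BOC is on the study's list of genes that differed between normal bladder and iUC in dogs and humans. Of its 2 probe sets, none was called here. DISP1, which exports the ligands, was not called at 0.48 (adjusted p = 0.00119), under the fold threshold.

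Of 37 genes that act inside the cell or in the cilium on SMO and GLI, 1 was called. IFT52, a part of the transport machinery of the cilium, differed by -1.11 (SE 0.26, limma adjusted p = 0.00301), and at -0.97 it was no longer called without normal bladder replicate 3 or replicate 4. IFT52 lay at -1.18 to 0.25 (median -0.82) on high Tag arrays and at -0.51 to 0.49 (median -0.04) on low Tag arrays. In normal bladder it lay at 0.37 to 1.26. SUFU, which holds GLI factors inactive, was not called at 0.56 (adjusted p = 0.0267), under the fold threshold.

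Of 22 Hedgehog response genes other than the members, 3 were called higher and 5 lower in iUC, so those called were split in direction. PTHLH, a secreted hormone-like peptide, ran from -0.28 to 1.85 in iUC with a median of -0.05, against 1.64, 1.67, 4.06 and 4.68 in normal bladder. Its difference was -2.92 (SE 0.41, limma adjusted p = 1.49e-05). HSD11B1, an enzyme that activates glucocorticoids, differed by -2.29 (adjusted p = 6.85e-07) without overlap between the groups. IGFBP6, a binding protein of insulin-like growth factors, differed by -2.08 (adjusted p = 0.042), a call lost without normal bladder replicate 1 (-1.76, adjusted p = 0.119), 3 or 4. OSR2, a transcription factor, differed by 2.42 (SE 0.93, adjusted p = 0.0472), and it ran from -1.96 to 3.18 among the tumours. Its high values were mostly on low Tag arrays, at -1.78 to 3.18 with a median of 2.01, whereas the high Tag arrays lay at -1.96 to 1.68 with a median of -1.83, beside a mean of -1.84 in normal bladder. With the high Tag arrays alone the OSR2 difference was 1.04 (adjusted p = 0.219), and the call was lost without each normal sample in turn (adjusted p of 0.0686 to 0.125). TBX2 and FOXM1, at 1.45 and 1.06, and CCND1 and RAB34, at -1.61 and -1.30, were the other genes called, and are named here after their values were seen. FOXF1, a stromal target of Hedgehog in mouse, was not called at -0.72 (limma adjusted p = 0.00722), under the fold threshold.

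Of 14 genes listed as other BMP and GDF ligands, 2 were called lower and none higher in iUC. That list also holds the activin subunits INHBA and INHBB, and BMP1, which is a protease and not a ligand. BMP6 ran from -1.01 to 1.72 in iUC with a median of -0.21, against 2.18, 2.25, 3.29 and 2.81 in normal bladder. Its difference was -2.69 (SE 0.40, limma adjusted p = 3.32e-05), and the groups did not overlap. INHBA, a subunit of activin, differed by -1.06 (SE 0.16, adjusted p = 3.22e-05), and by -0.99, under the fold threshold, without normal bladder replicate 3. Under the block for the label ending BMP6 was not called (-2.24, adjusted p = 0.154), nor was PTHLH among the Hedgehog response genes (-1.55, adjusted p = 0.408). BMP2 and BMP7 were not called, at -1.02 and -0.29, where the adjusted p was 0.169 for BMP2.

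Of 19 BMP receptors and SMADs, the signal carriers inside the cell, 3 were called lower and none higher in iUC. The receptors ACVR2A and ACVRL1 differed by -1.11 (limma adjusted p = 0.00156) and -1.03 (adjusted p = 1.06e-05), and SMURF2, a ubiquitin ligase that acts on SMADs, by -1.02 (adjusted p = 0.0445). ACVR2A was not called without normal bladder replicate 2 (-0.92), nor ACVRL1 without replicate 3 (-0.77) or without replicate 1, where it lay just under the fold threshold. SMURF2 parted by array set, at -1.52 to -0.95 on high Tag arrays and -0.51 to 0.60 on low Tag arrays, against 0.05 to 0.94 in normal bladder. Without the high Tag arrays its difference was -0.46 (adjusted p = 0.0758), and without normal bladder replicate 2, 3 or 4 its adjusted p was 0.0895, 0.129 or 0.141. SMAD1, which relays BMP signals, was not called at 0.78, although its adjusted p was 3.89e-06. Of its 3 probe sets 2 were called higher in iUC. Among all probe sets 14.6% were called in either direction, and most of those were lower in iUC, at 10.7% of all probe sets. All tumours lay above all normal samples in SMAD1 and in SMAD6 (0.72, adjusted p = 0.00102, not called), as in 3.22% of all genes. The receptor BMPR1A was not called at -0.46.

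Of 20 antagonists and extracellular modulators of BMPs, 4 were called lower and none higher in iUC. SMOC2, a matrix protein, ran from -0.92 to 1.31 in iUC with a median of -0.21, against 2.87, 2.14, 2.51 and 2.04 in normal bladder, a difference of -2.45 (SE 0.37, limma adjusted p = 4.53e-05). FST, or follistatin, which binds activins and BMPs, differed by -1.97 (SE 0.23, adjusted p = 1.64e-06). NBL1, a secreted BMP antagonist, differed by -1.37 (adjusted p = 7.94e-06) and FSTL1 by -1.23 (adjusted p = 0.0326), a call lost without normal bladder replicate 1 (-0.83, adjusted p = 0.155), 3 or 4. GREM1 and CHRD, both secreted BMP antagonists, were not called, at 0.04 and -0.36. CHRD passed the limma adjusted p (0.00211) but not the fold threshold.

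Of 15 BMP response genes, 2 were called higher and 1 lower in iUC. HAMP, the iron hormone hepcidin, differed by -2.21 (SE 0.52, limma adjusted p = 0.00295). DLX5, a transcription factor of bone and limb, differed by 1.44 (adjusted p = 0.0142) with all tumours above all normal samples, though its adjusted p was 0.0523 without normal bladder replicate 3. JUNB, a subunit of AP-1, differed by 1.33 (adjusted p = 0.0284), and normal bladder replicate 1 stood apart from the other normal samples in it. Under the block for the label ending the JUNB difference turned in sign, to -0.81 (adjusted p = 0.838), and it was not called without normal bladder replicate 2 (1.02, adjusted p = 0.131), 3 (1.09, adjusted p = 0.128) or 4 (1.16, adjusted p = 0.111). ID1 and ID3, direct targets of SMAD signalling, were not called at -0.22 and -0.89.

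**Figure D5:**
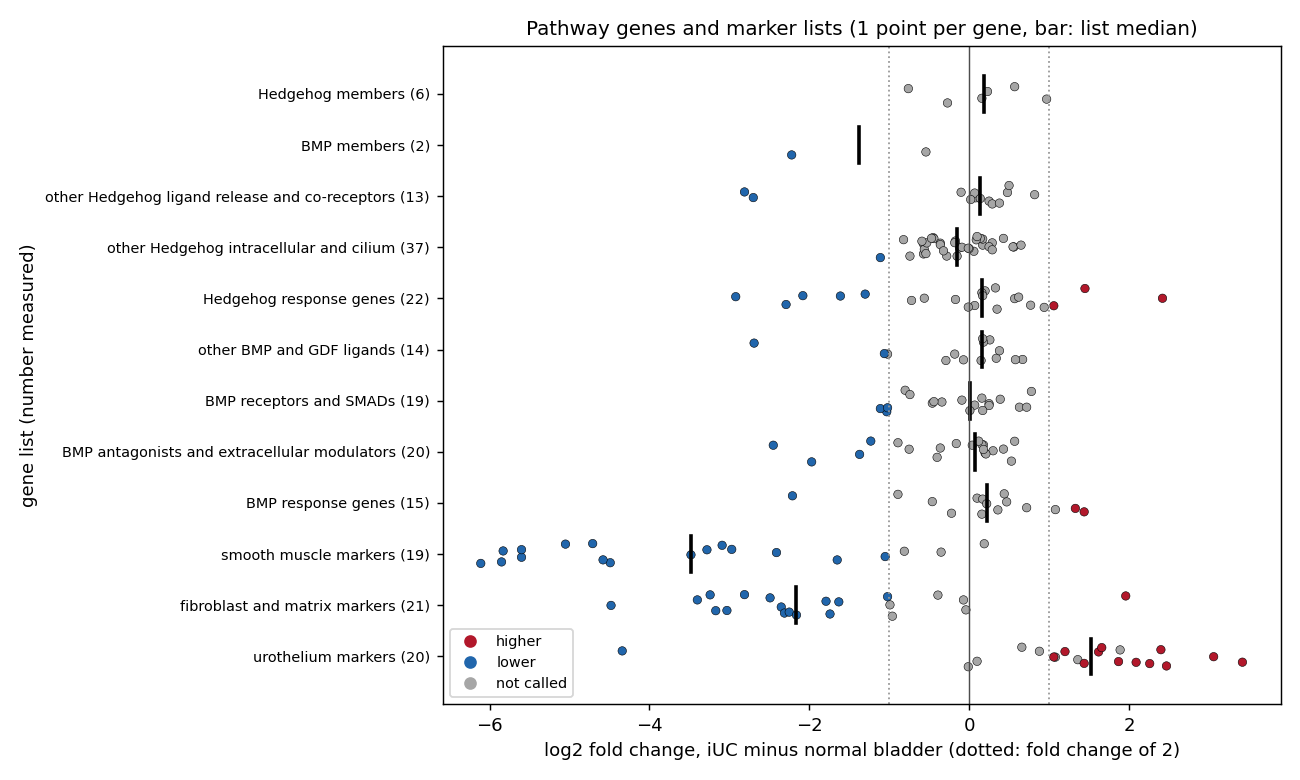
Log2 fold change, iUC minus normal bladder (horizontal axis), of each gene of the pathway lists and of 3 marker lists (vertical axis, with the number of genes measured). Points are genes, coloured by call, black bars are list medians and dotted lines a fold change of 2. The medians of the 7 other pathway lists lie between -0.15 and 0.22, while those of the smooth muscle and of the fibroblast and matrix markers lie at -3.48 and -2.16.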

How the data were processed

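Affymetrix Canine 2.0 arrays of 18 iUC and 4 normal bladder samples were used, grouped by their labels. The authors read them into GeneSpring GX 12.6.1 and deposited log2 values of 43035 probe sets, each centred on its median over the 22 arrays (not given in the sources used here: how probes were summarised and arrays normalized), and the log base was taken from the usual scale of that program. The 111 control probe sets were set aside. Of 42924 others, 29254 had 1 gene symbol in the platform annotation, 439 had several and 13231 had none, and the Entrez numbers of 27680 were found in the RefSeq gene table, which changed 0 symbols. For HHIP the Entrez numbers of the annotation and of the table differ. Probe sets whose names end in _s_at hold probes that can match more than 1 transcript.

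The test was limma's (version 3.58.1, R 4.3.3; lmFit, then eBayes, two-sided, Benjamini-Hochberg over 15115 genes or 42924 probe sets); calls needed an adjusted p of 0.05 and a fold change of 2, as in the study's methods. Its filter on the lowest 20 percentiles was not applied, since centred values hold no level. The number of arrays limits the precision. Relations used 100000 permutations (exact for 7 arrays). All members were named, and of each other list up to 4 called genes of largest change, the 2 genes nearest to a called member and, beside results, leading markers; the few uncalled genes were added after their values were seen. The members and lists were chosen with earlier results of these data known, and the lists came from general knowledge (GATA3 stands in a BMP and in a urothelium list). The code was tested on simulated data. Alternatives included other probe set rules, scalings, weights, the methods' t-test, left-out samples and blocks. Python 3.11, pandas 2.3.3 and matplotlib 3.10.9 were used.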

Additional observations from a re-analysis of the deposited data

Results flagged for a closer look

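JUNB, a subunit of the transcription factor AP-1 and a BMP response gene, had a centred log2 value of 0.76 in normal bladder replicate 1 and of -2.30 to -1.86 in the other normal samples. The gap between that sample and the nearest other one took up 0.856 of the range of the normal samples, above the critical value of 0.829 for 4 samples. The value of 0.76 lies inside the range of the tumours, -1.15 to 1.48. Of 27 genes examined in this way 1 stood out, and chance gives about 1 in 20 groups. Its cause was not tested.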

How the results depend on the processing

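The count of called members, 1 of 8, became 2 with the probe set of largest SD for each gene, with scaling to the 75th percentile, with array weights, with normal bladder replicates 3 and 4 averaged, with the high Tag iUC arrays alone, with 1 or more called probe sets as the rule and, as an alternative chosen after seeing the data, with both of those normal samples left out. The added member was IHH, or HHIP with the probe set of largest SD, array weights and the probe set rule. The count was 0 with the label ending as a block, with samples of the first ending only and, chosen after seeing the data, with quantile normalization and that block together. Leaving out each sample in turn gave 1 to 2. Of the member probe sets 2 were called, against 1 after quantile normalization and 0 under the block for the label ending, and 2 to 3 without each normal sample.

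Of the other pathway genes 23 were called, against 9 after quantile normalization, 15 with normal bladder replicates 3 and 4 averaged, 9 with the label ending as a block, 9 with the first ending only, 35 with the high Tag arrays alone, 9 with both replicates 3 and 4 left out and 2 with quantile normalization and the block. Without each normal sample in turn it was 13 to 22, lowest without replicate 3, and 15 without replicate 4. Of all genes 1862 were called, against 2979 with the probe set of largest SD, 726 after quantile normalization, 404 with the label ending as a block, 435 with the first ending only, 3705 with the high Tag arrays alone, 558 with both replicates left out, 172 with quantile normalization and the block, and 1265 to 2211 without each normal sample.

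Signs turned in the following: SMO was 0.00 with quantile normalization and the label ending block, GLI1 was 0.09 with the high Tag arrays alone and 0.09 with both normal replicates left out, BMP4 was 0.26 with the block, 0.26 with the first ending only and 0.22 with quantile normalization and the block, and JUNB was -0.81, -0.81 and -0.71 under those settings. None of these turned values passed the test, and the cause was not tested.

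The replicate numbers do not pair the samples: deviations of same-numbered samples correlated at -0.161, 0.0454, -0.105 and 0.0653. With the replicate number as a block, 1 member was called (BMP5, -2.28), 9 other pathway genes and 564 of all genes. Over 8 members, 292 of 311 alternative values kept their direction and side of the threshold, 10 passed it, 3 lost it and 6 turned. Over 19 named pathway genes, 279 of 399 did so, 117 lost the threshold and 3, all of JUNB, turned. SMURF2 lost its call in 14 of 21 alternatives, OSR2 and IGFBP6 in 13 each and IFT52 and FSTL1 in 11 each, whereas GPC3, SCUBE2, HSD11B1, SMOC2 and FST lost theirs in 1, that of quantile normalization with the block. The 4 normal samples, 3 of them of the other label ending, and values without a level set the limit of these comparisons.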
